A study of Mus musculus with 2 samples.

Results

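Leptin and the IL-6 family cytokines signal through closely related receptors, and 10 genes of this route were examined in adherent liver cells, labelled stromal, from αSMACreER;Foxf1 fl/fl mice and Foxf1 fl/fl controls. They were the receptors Lepr, Il6st, Il6ra, Osmr and Lifr, the kinases Jak1 and Jak2, the transcription factor Stat3 and the feedback inhibitors Socs2 and Socs3. The 10 were a fixed list of symbols, matched to the Ensembl identifiers of the expression tables, and made up 10 of 38320 gene entries. Each symbol matched 1 entry.

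The cells came from adult male mice of the C57/Bl6 strain that had received carbon tetrachloride (CCl4, a liver toxin) for 5 weeks. Both groups carried floxed Foxf1 alleles. Foxf1 fl/fl littermates without Cre served as controls, and αSMACreER;Foxf1 fl/fl mice also carried a tamoxifen-inducible Cre driven by the αSMA promoter, so that recombination was directed to cells with an active αSMA promoter, such as myofibroblasts. Tamoxifen was injected during the injury period. The study describes livers of both genotypes after that treatment. Foxf1 was not analysed here. Cells that stuck to culture dishes within 2 hours were collected as the stromal fraction, samples were pooled, and 1 library per genotype was sequenced with single-end reads of 75 bases. With 1 pooled library each, there was no spread between animals to compare a difference with, and no test between genotypes was possible. Expression was given as FPKM, the number of fragments relative to transcript length and library size, so levels of different genes can be set side by side per unit length. The depth was estimated at 9810942 reads for Foxf1 fl/fl and 11285475 for αSMACreER;Foxf1 fl/fl. Intervals below are approximate 95% counting intervals from that estimate and cover counting error only.

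Il6st encodes gp130, the signal-transducing chain that IL-6, oncostatin M and LIF share, whereas leptin signals through LEPR itself. Ligand binding activates receptor-bound JAK kinases, which phosphorylate STAT3, and STAT3 then switches on target genes that include Socs3, whose product shuts the receptor down. In the liver, the route is best known for the acute-phase response of hepatocytes, and leptin and oncostatin M also act on hepatic stellate cells, the precursors of myofibroblasts.

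The composition of the fraction was read first from marker genes. The 12 macrophage markers summed to 13357 FPKM in the Foxf1 fl/fl library and 11042 in the αSMACreER;Foxf1 fl/fl library. Lysozyme (Lyz2) gave 3682 and 3395 of these, and the complement genes C1qb and C1qa gave 1632 and 1307, and 1546 and 1142. The 19 stellate cell and myofibroblast markers summed to 592 and 825, with Ecm1 the most abundant at 143 and 178, followed by the matrix genes Dcn (127 and 186) and Col3a1 (115 and 164). Among the markers that define stellate cells, Gfap was listed at 0 in both libraries, Lrat had 0.0778 and 0.110, and Des had 1.70 and 3.29. By these lists, the labelled stromal fraction therefore held far more macrophage than stellate cell marker RNA in both libraries. The study, in contrast, reported that its purified cells expressed Des and Acta2 and were without markers of hepatocytes and Kupffer cells. The 12 hepatocyte markers summed to 4129 and 1486, of which Alb gave 2292 and 912, Apoa2 782 and 220 and Ttr 322 and 86.8. In such bulk samples, fewer cells of a type and less RNA per cell cannot be told apart.

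Among the receptors, Lepr and Osmr were higher and Lifr was lower in the αSMACreER;Foxf1 fl/fl library, while Il6st and Il6ra were higher by under 1.5-fold. Lepr, the leptin receptor, had the lowest level of the 10 genes in either library and also the largest difference as measured. It had 2.28 FPKM in Foxf1 fl/fl cells and 5.54 in αSMACreER;Foxf1 fl/fl cells, on an estimated 120 and 334 reads. The log2 difference was 1.22 (interval 0.92 to 1.52), 2.33-fold higher. This difference, like those that follow, was computed as log2(FPKM + 0.1) after scaling to the median ratio of all genes, a scale that understates changes of genes near 0. Lepr (ENSMUSG00000057722) lies on the forward strand at chr4:101717404-101815352 of mm10 and has 7 annotated transcripts of 208 to 5542 bases. Gene-level FPKM does not separate the long signalling form of the receptor from the short forms. If the reads came from a transcript of median length, only about 15 and 43 stood behind the values, and the interval widened to 0.38 to 2.06.

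Osmr (chr15:6813577-6874969, reverse strand) encodes the chain that pairs with gp130 to bind oncostatin M. It had 10.6 FPKM in Foxf1 fl/fl and 17.9 in αSMACreER;Foxf1 fl/fl cells. It was 1.65-fold higher, with a log2 difference of 0.72 (0.58 to 0.87) on 549 and 1067 reads. Lifr (chr15:7129559-7197489, forward strand) encodes the partner of gp130 for LIF. It went the other way, from 17.7 to 13.4 FPKM, a log2 difference of −0.43 (−0.53 to −0.33), 1.35-fold lower. These 2 neighbouring genes on chromosome 15 therefore changed places in the order of levels. Lifr was 1.68 times as abundant as Osmr in Foxf1 fl/fl cells (interval of the ratio 1.52 to 1.85) and 0.748 times as abundant in αSMACreER;Foxf1 fl/fl cells (0.691 to 0.810). The log2 ratio of Lifr to Osmr thus fell by 1.16 (interval −1.34 to −0.98). A ratio within a library does not depend on the scaling between libraries.

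Il6st (chr13:112475008-112506860, forward strand) had 48.6 and 66.9 FPKM, a log2 difference of 0.43 (0.38 to 0.49). Il6ra (chr3:89869324-89913162, reverse strand), the chain that binds IL-6, had 4.46 and 6.25 FPKM, a difference of 0.45 (0.26 to 0.64). The shared chain was more abundant per unit length than each of the other 4 receptors. Il6st had 10.9 times the FPKM of Il6ra in Foxf1 fl/fl cells and 10.7 times in αSMACreER;Foxf1 fl/fl cells, and the change of this ratio, −0.026 on the log2 scale, had an interval that included 0 (−0.22 to 0.17). The ratio of Il6st to Lifr, by contrast, was 2.74 and 5.00, and that of Il6st to Lepr was 21.3 and 12.1.

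**Figure D1:**
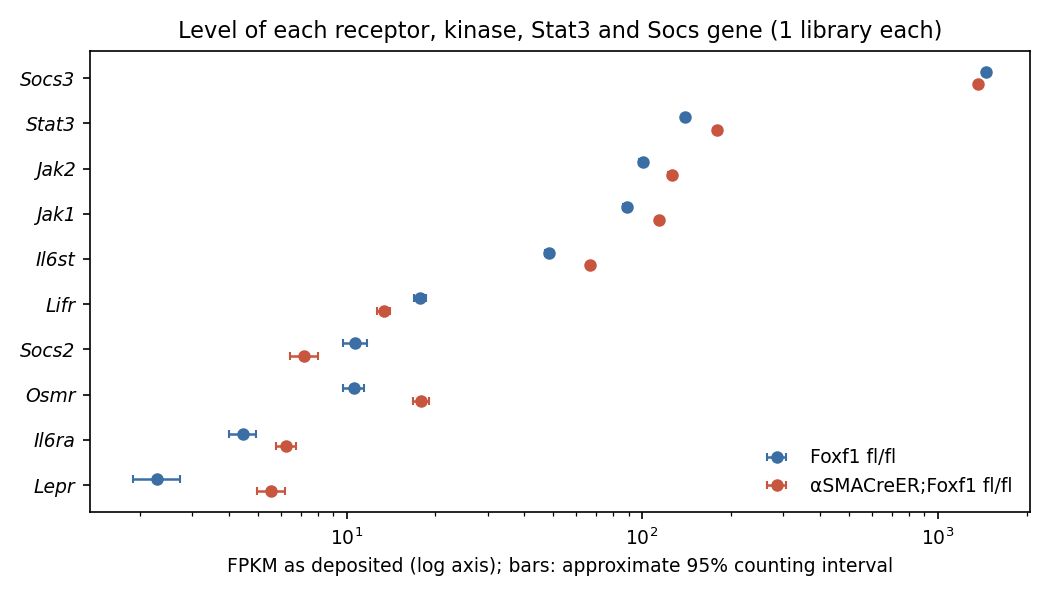
FPKM of the 10 genes as deposited (log axis), with 1 point per library and approximate 95% counting intervals as bars. Socs3 stands highest in both libraries, at 1455 and 1374 FPKM, Lepr lies lowest in both, and Lifr and Osmr exchange their order between the libraries.

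The kinases and Stat3 were abundant and differed little. Jak1 (chr4:101152367-101265282, reverse strand) had 89.2 FPKM in Foxf1 fl/fl and 114 in αSMACreER;Foxf1 fl/fl cells, a log2 difference of 0.33 (0.28 to 0.39). Jak2 (chr19:29251828-29313080, forward strand), the kinase bound to the leptin receptor, had 101 and 126 FPKM, a difference of 0.30 (0.24 to 0.35). Stat3 (chr11:100885098-100939540, reverse strand) had 139 and 179 FPKM, a difference of 0.34 (0.30 to 0.38). None of these 3 reached 1.5-fold, and they kept their proportions. The FPKM ratio of Stat3 to Jak1 was 1.56 and 1.57, and that of Jak2 to Jak1 was 1.13 and 1.10. Exons of Stat3 overlap those of Stat5a, a related factor on the opposite strand with 38.02 and 41.4 FPKM, and exons of Jak1 overlap those of Raver2, with 0.873 and 1.04 FPKM. Reads from such shared stretches cannot be assigned without strand information.

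The feedback inhibitors were both lower in the αSMACreER;Foxf1 fl/fl library by value, at very different levels. Socs2 (chr10:95385362-95417180, reverse strand), best known as a STAT5-induced brake on growth hormone signalling, had 10.7 and 7.18 FPKM on 425 and 328 reads. Its log2 difference of −0.60 (−0.80 to −0.39) was 1.51-fold, just past the 1.5-fold threshold (0.58). Socs3 (chr11:117966079-117970047, reverse strand), the STAT3-induced inhibitor of gp130 and of the leptin receptor, was among the most abundant transcripts of the fraction. With 1455 FPKM it ranked 65 of 36458 symbols in Foxf1 fl/fl cells, and with 1374 FPKM it ranked 47 in αSMACreER;Foxf1 fl/fl cells. The log2 difference of Socs3 was −0.11 (−0.13 to −0.087), and its sign turned under other scalings, to 0.085 with equal FPKM sums and 0.013 with upper-quartile scaling. The FPKM ratio of Socs3 to Stat3 was 10.4 in Foxf1 fl/fl and 7.66 in αSMACreER;Foxf1 fl/fl cells. The log2 ratio changed by −0.45 (−0.49 to −0.40). Between the medians of genes of like longest transcript the change was −0.43, but it was not of that size when the median transcript length was used, as the values by length show.

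In order of level, both libraries had Socs3 first, then Stat3, Jak2, Jak1 and Il6st. In Foxf1 fl/fl cells Lifr, Socs2, Osmr, Il6ra and Lepr followed, and Socs2 and Osmr did not differ beyond counting error (ratio 1.01, interval 0.89 to 1.15). In αSMACreER;Foxf1 fl/fl cells the order was Osmr, Lifr, Socs2, Il6ra and Lepr. There the levels of Il6ra and Lepr did not differ beyond counting error (ratio 1.13, interval 0.99 to 1.29). Socs2 and Il6ra differed only just beyond it (ratio 1.15, interval 1.004 to 1.32), with reads placed on the longest transcript.

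Of the 10 genes, 2 (Lepr and Osmr) were at least 1.5-fold higher, where 12.8% of the 12692 genes tested, those whose FPKM averaged 1 or more, were. Socs2 was the 1 gene at least 1.5-fold lower, against 13.2% of all genes. Counts of this size in 10 genes are near those shares. Socs2 lay at the threshold, and none of the 10 was at least 1.5-fold lower with values as deposited, a pseudocount of 1, equal FPKM sums or upper-quartile scaling. With equal FPKM sums 4 of the 10 were at least 1.5-fold higher. By sign alone, 7 of the 10 were higher and 3 lower, where 6392 of the 12692 genes were higher and 6299 lower. The median log2 difference was 0.34 over the 10 genes and 0.0050 over all genes tested. The median of all genes became 0.20 with equal FPKM sums and 0.12 with upper-quartile scaling. The numbers past 1.5-fold higher and lower, 1624 and 1678 of all genes, became 2690 and 1130 with the former and 2245 and 1291 with the latter.

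**Figure D2:**
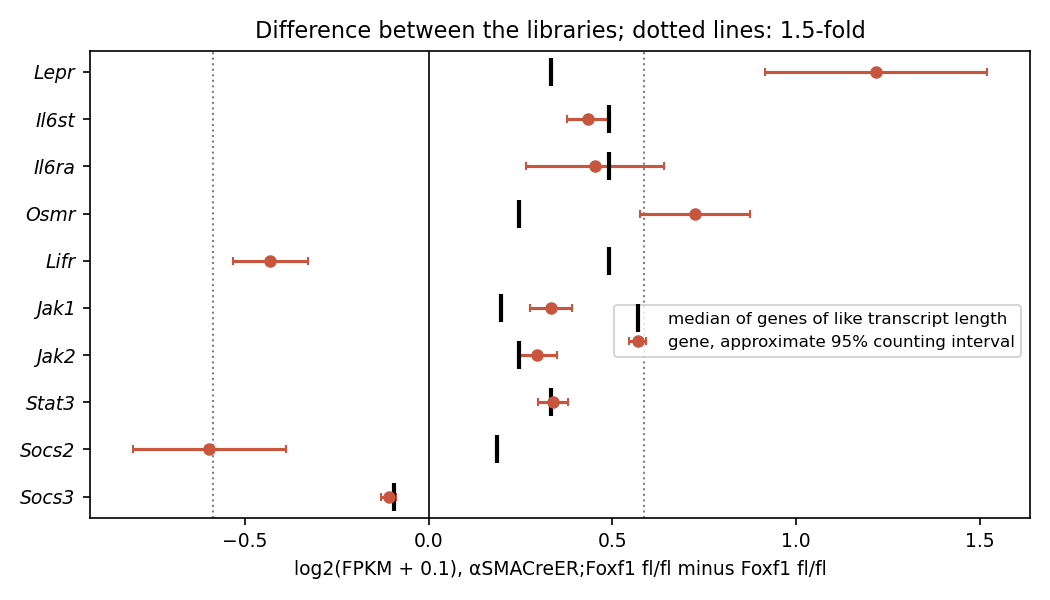
Log2 difference of each gene, αSMACreER;Foxf1 fl/fl minus Foxf1 fl/fl (points, with approximate 95% counting intervals), beside the median of genes with a longest transcript of like length (black ticks). Lepr and Osmr lie to the right of their ticks, Lifr and Socs2 to the left, and the other 6 close to them.

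The differences of all genes followed transcript length, and what this meant for the 10 genes depended on which transcript gave the length. When the 12692 genes were put into 20 groups by their longest annotated transcript, the median log2 difference ran from −0.36 in the shortest group to 0.49 in the longest. Il6st, Il6ra and Lifr fell in the longest group, where 38.7% passed the 1.5-fold threshold upwards and 3.62% downwards. Lengths came from the annotation GENCODE M21, in which the spans of Il6st, Il6ra and Lifr are longer than the deposited ones. Lifr, for example, starts at 7090614 there and at 7129559 in the deposited data. The lengths behind the deposited FPKM of these genes may therefore differ from those used for grouping. Lepr and Stat3 belonged to a group with 24.9% higher and 2.68% lower, and Osmr and Jak2 to one with 19.8% and 3.46%. With the median of its own length group subtracted, Stat3 differed by 0.0035, Jak2 by 0.049 and Jak1 by 0.13, and Il6st and Il6ra turned to −0.057 and −0.038. The median over the 10 genes went from 0.34 to −0.0055, with 5 of 10 above their group. Groups by the median transcript length of each gene gave other values. Stat3 then stood 0.44 and Jak1 0.47 above their groups, Jak2 −0.042, Il6st 0.25, Il6ra 0.11 and Socs3 0.10, with a median of 0.18 over the 10 genes. For Stat3, Jak1 and Il6st, the difference from genes of like length therefore rested on this choice.

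Lepr, Osmr, Lifr and Socs2 kept their directions with the length trend removed by either measure. By the longest transcript, Lepr remained higher by 0.88 on the log2 scale, and 3.15% of the genes in its length group had a larger difference. Osmr was higher by 0.48, with 13.2% of its group above it. For Lifr the value became −0.92, and 4.41% of genes in its group had a smaller difference. Socs2 came to −0.78, with 4.88% of its group below it. By the median transcript length the values were 1.31 for Lepr, 0.52 for Osmr, −0.64 for Lifr and −0.51 for Socs2. Lifr, which missed the 1.5-fold threshold as measured, was past it by both measures, and Osmr reached it by neither. Whether the length trend arose in the libraries or in the cells was not tested.

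**Figure D3:**
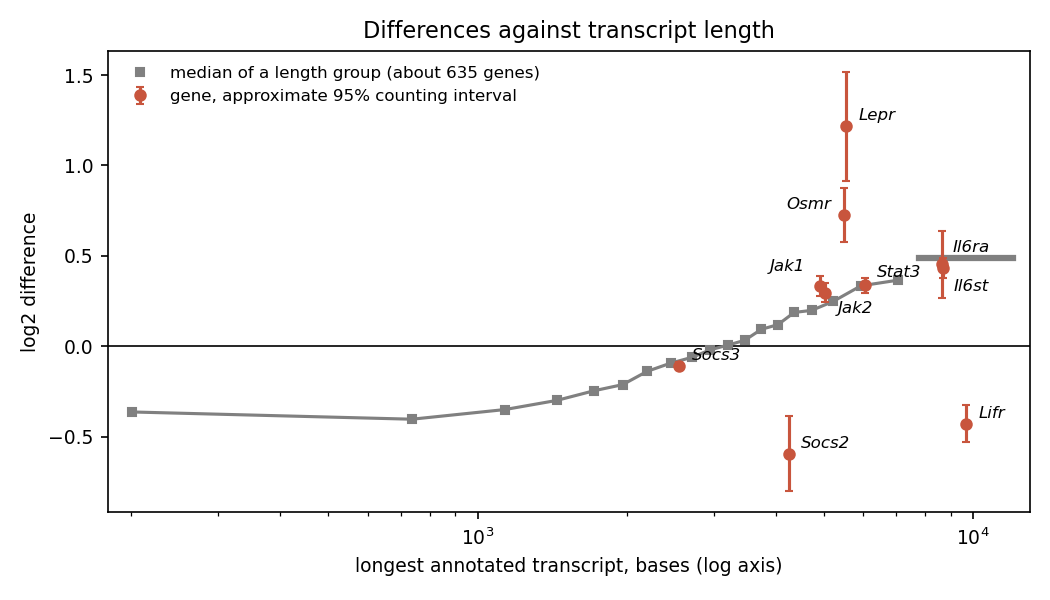
Log2 difference (αSMACreER;Foxf1 fl/fl minus Foxf1 fl/fl) against the longest annotated transcript in bases (log axis), with the medians of 20 length groups in grey, the longest drawn as a bar, and the 10 genes in red with counting intervals. Stat3, Jak2, Il6st, Il6ra and Socs3 lie near the grey line, Lepr and Osmr above it, and Lifr and Socs2 below it.

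Cell type markers moved alongside these genes. The 19 stellate cell and myofibroblast markers, in the same direction as Lepr and Osmr, had a log2 difference of 0.45 in their summed level. Of 13 tested, 11 were higher, and 2 of them, Des and Pdgfra, were past 1.5-fold, where 12.8% of all genes were. With the median of its length group subtracted, Pdgfra came to 0.46, within 1.5-fold, and Des to 0.91. The median over the 13 went from 0.49 to 0.25, with 11 of 13 above their length group. The 2 tested markers that were lower by value are genes of contractile myofibroblasts. Acta2, which encodes αSMA and whose promoter drives the Cre, had 7.77 and 5.65 FPKM (−0.48, interval −0.83 to −0.12), and Tagln had 5.51 and 4.31 FPKM (−0.37, interval −0.84 to 0.10). The other 6 of the 19 fell below a mean FPKM of 1. Among these, Reln had 0.683 and 0.313 FPKM (−0.94, interval −1.49 to −0.39). Ngfr and Colec10 were also lower by value, Lrat and Hand2 were higher, and Gfap was at 0 in both libraries. The intervals of Ngfr, Colec10, Lrat and Hand2 included 0. The 12 hepatocyte markers, in the same direction as Lifr and Socs2, had −1.50 in their sum (−1.71 without Alb). Of these, 12 of 12 were at least 1.5-fold lower, where 13.2% of all genes were. The 5 neutrophil markers, also in that direction, had −1.33 in their sum (−1.30 without S100a9). Of these, 5 of 5 were past 1.5-fold, where 13.2% of all genes were, and Ly6g was listed at 0 in the αSMACreER;Foxf1 fl/fl library. S100a8 and S100a9 fell in the shortest length group, where 44.7% of genes were at least 1.5-fold lower. Ly6g and Retnlg fell in the next group, where 32.1% were. The median over the 5 went from −1.35 to −0.98 with the length group medians subtracted. With the median of its length group subtracted, Retnlg came to −0.58, just within 1.5-fold. Macrophage markers had −0.30 in their sum (−0.37 without Lyz2). Of the 12, 1 was at least 1.5-fold lower, where 13.2% of all genes were. It was the Kupffer cell gene Clec4f (1117 and 753 FPKM), which lay at the threshold (−0.60). With the median of its length group subtracted, Clec4f came to −0.50, and the median over the 12 went from −0.34 to −0.12. The part of cell composition in the differences of the 10 genes was not tested.

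Of the ligand transcripts tested, 6 of 8 were lower by value in the αSMACreER;Foxf1 fl/fl library. Lep, which encodes leptin, was listed at 0 in both libraries, and 8 of 13 ligand genes passed the filter on low values. None of the 8 was at least 1.5-fold higher and 3 were past that threshold downwards, where 13.2% of all genes were. The median over the 8 was −0.42. With the length trend removed it was −0.19 by the longest transcript and −0.38 by the median transcript length. With the median of its length group subtracted, Il6 came to −0.54, Il27 to −0.31 and Cntf to −0.65, so that only Cntf stayed past 1.5-fold. Il6 was the most abundant, with 205 FPKM in Foxf1 fl/fl and 135 in αSMACreER;Foxf1 fl/fl cells, a log2 difference of −0.63 (−0.70 to −0.57). Il27, a subunit of IL-27, had 27.3 and 17.6 FPKM (−0.66), and Cntf, ciliary neurotrophic factor, had 2.91 and 1.43 (−1.005) on 25 and 14 reads. Clcf1, a ligand of the CNTF receptor, had 53.2 and 40.5 (−0.42). The ligands of the 2 receptors that exchanged order were both somewhat higher by value. Lif had 23.0 and 28.5 FPKM (0.29, interval 0.16 to 0.41), and Osm had 17.3 and 19.2 (0.13), with an interval that included 0 (−0.075 to 0.33).

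Among 9 other receptors and genes of receptor handling, 8 were tested. Of these, 1 was at least 1.5-fold higher and 2 lower, where 12.8% and 13.2% of all genes were. The list median of −0.097 became 0.096 with equal FPKM sums. With the length trend removed it was 0.019 by the longest transcript and −0.23 by the median transcript length. Il11ra1, the IL-11 receptor that also pairs with gp130, had 33.1 and 16.8 FPKM, a difference of −1.003 (−1.17 to −0.84), and Cntfr, the CNTF receptor, had 3.08 and 1.91 (−0.69). The sheddases that release soluble IL-6 receptor were higher by value. Adam10 had 14.9 and 25.6 FPKM (0.75, interval 0.61 to 0.89), and Adam17 had 45.8 and 61.7 (0.40). Csf3r, the G-CSF receptor, had 48.4 and 53.6 (0.12). With the median of its length group subtracted, Adam10 came to 0.55 and Cntfr to −0.48, both within 1.5-fold, and Il11ra1 to −0.94.

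The other JAK and STAT genes had a median of 0.16. With the length trend removed it became 0.030 by the longest transcript and −0.039 by the median transcript length. Of the 8, 1 was at least 1.5-fold higher and none lower, where 12.8% and 13.2% of all genes were. It was Stat4, with 9.64 and 15.5 FPKM (0.65, and 0.67 with the median of its length group subtracted). Stat6, the IL-4 effector, had 68.5 and 78.8 FPKM (0.18). Stat2, of the interferon pathway, had 47.0 and 58.2 (0.28), and the kinase Tyk2 had 9.22 and 11.7 (0.31). Of 14 other inhibitors and phosphatases, none was at least 1.5-fold higher and 1 was lower, where 12.8% and 13.2% of all genes were. That gene was Socs1, an inhibitor of JAK kinases, with 94.3 and 57.0 FPKM, a difference of −0.75 (−0.84 to −0.66). Socs6 had 5.94 and 8.80 FPKM (0.53). The phosphatases Ptpn6 and Ptpn1 had 149 and 129 (−0.23) and 104 and 105 (−0.020). The growth hormone axis, in which Socs2 acts, had a median of 0.015 over 7 genes tested, 3 of which (Stat5a, Stat5b and Cish) also stand in the lists above. Its target Igf1 had 135 and 130 FPKM (−0.082), the STAT5 target Cish 68.4 and 70.4 (0.015) and the repressor Bcl6 16.0 and 20.7 (0.34). The prolactin receptor Prlr, with 2.07 and 0.998 FPKM (−1.004), was the 1 of 7 tested genes past 1.5-fold, downwards, where 13.2% of all genes were.

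All 15 acute-phase STAT3 targets were lower by value, whereas the direction of the other STAT3 targets as a list turned with the scaling. Of 15 acute-phase genes, 13 were at least 1.5-fold lower and none higher, where 13.2% and 12.8% of all genes were. Their median was −1.42 (−1.21 with the length trend removed). Haptoglobin (Hp) had 524 FPKM in Foxf1 fl/fl and 210 in αSMACreER;Foxf1 fl/fl cells (−1.34), and hepcidin (Hamp) had 230 and 110 (−1.08). The serum amyloid genes Saa1 and Saa2 had 166 and 33.1 (−2.35) and 115 and 19.99 (−2.55), but their coding sequences are nearly the same, so the split of reads between them is uncertain. These genes are made mainly in hepatocytes, while neutrophils also make some of them, such as Lcn2. The median was −1.50 over the 12 hepatocyte markers and −1.35 over the 5 neutrophil markers. The part of either cell type in the acute-phase differences was not tested. Of 16 general targets, 2 were at least 1.5-fold lower and none higher, where 13.2% and 12.8% of all genes were. Their median was −0.10. By value 13 of 16 were lower, but 7 of 16 lay above the median of their length group, and the list median became 0.093 with equal FPKM sums and 0.022 with upper-quartile scaling. The 2 past 1.5-fold were Cebpb, with 678 and 401 FPKM (−0.79), and Cebpd, with 165 and 102 (−0.72), which encode C/EBP transcription factors. With the median of its length group subtracted, Cebpb came to −0.49, within 1.5-fold, and Cebpd to −0.81. Junb had 990 and 692 FPKM (−0.54), and Icam1 had 324 and 330 (−0.00044).

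**Figure D4:**
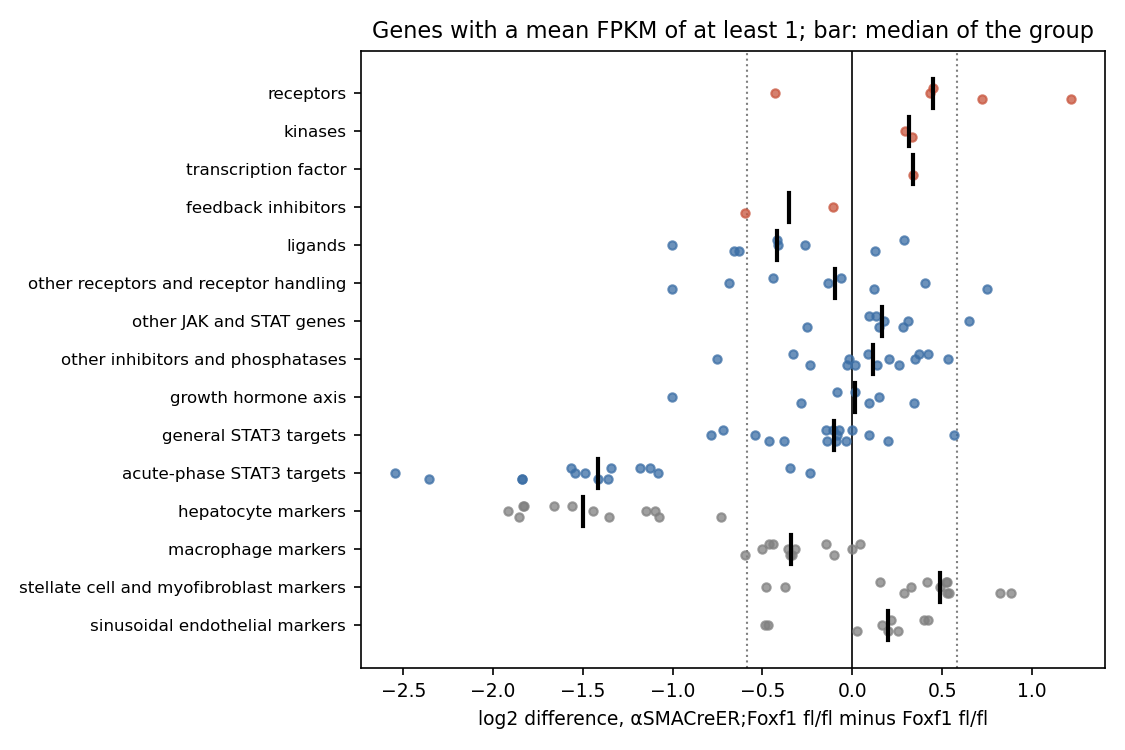
Log2 difference of every tested gene, by list, with the 10 signalling genes in red, related lists in blue, marker lists in grey, list medians as black bars and 1.5-fold as dotted lines. Hepatocyte markers and most acute-phase genes lie far to the left, with Serpina3n (−0.24) and Lbp (−0.34) nearer to 0, and neutrophil markers, not drawn, had a median of −1.35. The ligands lie mostly to the left with a median of −0.42, and the other related lists have medians between −0.10 and 0.16.

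The sequence of one promoter element is shown for Socs3 and for several STAT3 targets that hold it, because STAT factors bind the palindrome TTCNNNGAA, which reads the same on both strands. RefSeq windows (GRCm38.p6) of 250 bases before to 50 after each start were searched. Of the 10 genes 9 had a window, and 1, Socs3, held the letters upstream of its RefSeq start (11.1%), against 2582 of 27025 genes with a window (9.55%). Among the acute-phase genes 4 of 12 held them (33.3%), and among general targets 1 of 13 (7.69%). The sequences below run 5′ to 3′ on the strand of the gene, with the palindrome in capitals.
Socs3: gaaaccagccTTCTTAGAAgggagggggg
Fga: aggcccccatTTCCTGGAAtgtagattcc
Fgb: gactcaatgaTTCGAGGAAccccctgtgt
Itih4: aaacctgcatTTCCGAGAActtgcaccag
Icam1: ggcgcgaggtTTCCCGGAAagtggccccg
Each stretch holds the palindrome with 10 bases on either side. The stretches lie at chr11:117969502-117969530 (reverse strand) for Socs3, chr3:83025909-83025937 (forward) for Fga, chr3:83050007-83050035 (reverse) for Fgb, chr14:30886415-30886443 (forward) for Itih4 and chr9:21015888-21015916 (forward) for Icam1. The palindrome itself began 154 bases upstream of the RefSeq start in Socs3, 234 in Fga, 162 in Fgb, 51 in Itih4 and 42 in Icam1. For Socs3 that start is at 117969366, while the gene span given above runs to 117970047. Its palindrome therefore lies upstream by the RefSeq start but inside that span. A match describes the letters and does not show binding. Among the genes shown, Socs3 and Icam1 differed between the libraries by −0.11 and −0.00044, and the hepatocyte genes Fga, Fgb and Itih4 by −1.36, −1.54 and −1.84.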

How the data were processed

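Single-end reads were mapped with Tophat by the authors, who deposited Cufflinks FPKM values for each Ensembl gene, each with a status. The submitters' processing notes name the build mm10 and the tools TopHat and DESeq; versions, and whether counting used strand, are not given in the sources used here. Symbols came from GENCODE M21 (95.2% of 38320 entries), and 3 entries without status OK were left out. Foxf1 was not analysed here, and 1 promoter sequence is not reported here.

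Scaling used the median ratio (1.02) over 11871 genes that reached an FPKM of 1 in each library, and the pseudocount was 0.1. Genes whose FPKM averaged 1 or more (12692) were tested, meaning that their fold was read against the threshold. The 1.5-fold threshold follows the study's methods. FPKM are not counts, so no count model was fitted. Depth was estimated from the spacing of 1158 and 1404 low values, of which 46.7% and 47.6% lay within 0.1 of a whole read (20% if spread evenly), so reads were not recovered and intervals are rough. Reads were placed on the longest transcript of GENCODE M21 with an assumed fragment length of 200 bases.

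The 10 genes and all lists were chosen with earlier results of these data known. Named were the 10 genes, from each related list the 2 highest by mean FPKM and the 2 with the largest differences, and from marker lists the 3 highest and the first. Lep, Lif, Osm, Lbp, Serpina3n, Lcn2, Cntfr, Pdgfra, Acta2, Tagln, Lrat, Gfap, Reln, Ngfr, Colec10, Hand2, Ly6g, Icam1, the genes overlapping exons and the genes with a promoter match were named after their values were seen. The steps were tested on simulated data. Of the 14 alternatives, covering pseudocount, scaling, length, filter, threshold, repeated symbols and read placement, effects are given in the closing section. Python 3.11.15 was used with matplotlib 3.10.9, pandas 2.3.3, numpy 2.4.6 and scipy 1.17.1.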

Additional observations from a re-analysis of the deposited data

How the results depend on the processing

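No paired analysis was possible because there was 1 pooled library for each genotype, and no difference could be set against variation between animals. Depth limits Lepr most among the 10 genes, since its interval is the widest. Lepr and Osmr stayed higher and Lifr and Socs2 lower under every alternative run, with log2 differences of 0.88 to 1.41 for Lepr, 0.48 to 0.92 for Osmr, −0.92 to −0.24 for Lifr and −0.78 to −0.41 for Socs2. Summing repeated entries left all of the values as they were. Placing reads on the median transcript length cannot change the log2 differences, only the reads and intervals. All 10 intervals widened, and none came to include 0. Socs2 then had 72 and 55 reads (interval −1.10 to −0.091), Jak1 377 and 557 (0.14 to 0.52) and Stat3 752 and 1113 (0.20 to 0.47). Of 208 values recomputed under the other alternatives, 123 stayed within the counting interval of the reported value (for list medians, the median interval of the list) or, for counts, within 1.5 times, 85 moved further, and no value past 1.5-fold changed sign.

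Equal FPKM sums gave 0.63 for Il6st, 0.64 for Il6ra, 0.92 for Osmr, −0.24 for Lifr, 0.53 for Jak1, 0.49 for Jak2, 0.53 for Stat3, 0.085 for Socs3 and a median of 0.53 over the 10 genes, with 4 genes past 1.5-fold higher and 0 lower and 2690 of all genes higher. List medians became 0.096 for other receptors, 0.36 for other JAK and STAT genes, 0.30 for other inhibitors, −1.23 for acute-phase genes, 0.093 for general targets and 0.21 for the growth hormone axis. Sums over genes of at least 300 bases gave 0.61 for Il6st, 0.90 for Osmr, −0.26 for Lifr, 0.50 for Jak1, 0.47 for Jak2, 0.51 for Stat3, 0.064 for Socs3 and a median of 0.51, with 4 higher, 0 lower and 2550 of all genes higher, and list medians of 0.074, 0.34, −1.25, 0.072 and 0.19 for other receptors, JAK and STAT genes, acute-phase genes, general targets and the growth hormone axis. Upper-quartile scaling gave 0.56 for Il6st, −0.31 for Lifr, 0.45 for Jak1, 0.42 for Jak2, 0.46 for Stat3, 0.013 for Socs3 and a median of 0.46, with 0 lower, and medians of 0.28 for JAK and STAT genes and 0.022 for general targets. Values as deposited gave −0.082 for Socs3. Both they and a pseudocount of 1 gave 0 of the 10 genes lower, since Socs2 lies at the threshold.

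With the length trend removed, values were 0.88 for Lepr, −0.057 for Il6st, −0.038 for Il6ra, 0.48 for Osmr, −0.92 for Lifr, 0.13 for Jak1, 0.049 for Jak2, 0.0035 for Stat3 and −0.015 for Socs3, with a median of −0.0055, 1 gene higher and 2 lower, beside 1268 and 1414 of all genes. List medians were −0.19 for ligands, 0.030 for JAK and STAT genes, −0.084 for other inhibitors, −1.21 for acute-phase genes and −0.18 for the growth hormone axis. On the median transcript length they were 0.25 for Il6st, 0.11 for Il6ra, 0.52 for Osmr, −0.64 for Lifr, 0.47 for Jak1, −0.042 for Jak2, 0.44 for Stat3, 0.10 for Socs3 and 0.18 for the median, with 1 higher and 1 lower beside 1576 and 1452 of all genes, and −0.039 and −0.15 for JAK and STAT genes and the growth hormone axis. Without a filter 3832 genes were higher and 3225 lower, at a mean FPKM of at least 5 these were 685 and 943 with 1 of the 10 genes higher, and at 2-fold 552 and 788 with 1 higher and 0 lower. Why the length definitions differ was not tested. A pseudocount of 0.01 and a counting interval that leaves out 0 moved none of these values beyond those limits.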

Other observations

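Receptors of the neighbouring cytokine families differed little between the libraries. Of 8 IL-10 family and interferon receptor genes, a list chosen after the values above were seen, 7 passed the filter. None of the 7 was at least 1.5-fold higher or lower, where 12.8% and 13.2% of all genes were. In so few genes such a count is near those shares. The median log2 difference was 0.016. Ifnar2, an interferon receptor chain that signals through JAK1, had 124 FPKM in Foxf1 fl/fl and 127 in αSMACreER;Foxf1 fl/fl cells. Il10rb, shared by several IL-10 family receptors, had 109 and 108 FPKM. Ifnar1 had 33.6 and 43.3 FPKM, a difference of 0.34 (0.23 to 0.44), as large as those of Jak1 (0.33) and Stat3 (0.34). Il20rb had 5.06 and 5.47 FPKM, a difference of 0.084.

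Markers of other blood cells were measured in the same libraries. All 5 neutrophil markers were at least 1.5-fold lower in the αSMACreER;Foxf1 fl/fl library, where 13.2% of all genes were. Their sum was 1985 and 804 FPKM, with S100a9 at 1258 and 504, S100a8 at 625 and 256 and Retnlg at 83.7 and 42.9. Ly6g had 9.82 FPKM in Foxf1 fl/fl cells and was listed at 0 in αSMACreER;Foxf1 fl/fl cells. The 5 lymphocyte markers summed to 621 and 267 FPKM, a log2 difference of −1.25 that became 0.086 without Ighm. Ighm had 577 and 220 FPKM, Cd79a 24.6 and 23.97 and Cd3e 8.02 and 9.88. Sums of sinusoidal endothelial markers were 1149 and 1054 FPKM, a difference of −0.15 that became 0.0093 without Stab1. Stab1 had 417 and 303 FPKM, Clec4g 254 and 187, Oit3 103 and 125 and Pecam1 93.3 and 96.6. The 4 cholangiocyte markers summed to 58.0 and 49.4 FPKM, a difference of −0.26 that became 0.089 without Krt19. Krt19 had 39.7 and 29.5 FPKM, Epcam 8.38 and 5.65 and Sox9 5.05 and 7.30. The sums without the most abundant gene were added after the data were seen.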
